A study of Sus scrofa with 12 samples.

Results

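Ribosome biogenesis genes encode the proteins that transcribe, modify, cut and fold ribosomal RNA in the nucleolus and assemble it with ribosomal proteins. Here 58 of them were followed in cultured smooth muscle cells of pig (Sus scrofa) coronary artery after 4 h of treatment. They were chosen by name, as a list of gene symbols, and matched to the Ensembl identifiers of the deposited read counts through a table of symbols. The list was made with earlier results of these data known, so shares of members that passed are descriptions of this list. A row was found for 55 of the 58 among 21153 genes, and 54 had enough reads to be tested. DDX10, RIOK2 and IMP3 had no matched row and were not analysed here. WDR43 had a mean of 4.83 counts per library and was below the filter on low counts. WDR43, NOP56 and LTV1 had far fewer reads than these widely expressed genes usually give, and whether their rows cover the whole gene is not known, so their values are those of the rows and may not stand for the genes.

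The cells were primary cultures labelled as differentiated and contractile, used between passages 6 and 11 and plated with 10% fetal calf serum for 24 h. The dishes were then given 30 ng/ml PDGF-BB, 1 µg/ml S100A4 or both proteins (PDGF-BB+S100A4), and control dishes were given neither. PDGF-BB is a dimeric growth factor that drives migration and division of arterial smooth muscle, and S100A4, which the design text writes oS100A4, belongs to the S100 family of calcium-binding proteins and is also found outside cells. Each of the 4 groups had 3 libraries, numbered 1 to 3, and the series' design text states that cells came from 3 animals.

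Ribosome assembly begins when RNA polymerase I copies ribosomal DNA into a long precursor. Small nucleolar ribonucleoproteins (snoRNPs) modify the precursor, and separate sets of factors then cut it and build the small and the large subunit. The process consumes much of a growing cell's resources, and growth factors and the transcription factor MYC are known to raise it in many cell types. The members fall into 27 small-subunit factors, 20 large-subunit factors, 4 snoRNP proteins, 3 RNA polymerase I subunits and 4 general nucleolar proteins. In the reference annotation (RefSeq, build Sscrofa11.1, the build named in the submitters' processing notes) the 58 genes lay on 18 chromosomes, at most 8 on one.

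Libraries held 21455021 to 32448438 counts. The libraries numbered 2 stood apart in every group: their 8 smooth muscle markers summed to 7917 to 9303 CPM (counts per 1e6 counts of the library), against 17548 to 19410 CPM for number 1 and 18370 to 21892 CPM for number 3. None of the 8 was at 0 in any library, but TAGLN, usually abundant in smooth muscle, was at 3.21 to 7.21 CPM. Fibroblast markers summed to 364 to 472, 1019 to 1178 and 232 to 259 CPM in numbers 1, 2 and 3. Pericyte markers were at 1130 to 1737, 312 to 420 and 1493 to 1918 CPM in the same order. Cycling-cell markers were at 352 to 433, 524 to 606 and 144 to 183 CPM. Endothelial and macrophage sums of number 2 overlapped those of number 1.

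Markers of the cell types also differed with treatment, seen best within same-numbered pairs and in the fit with replicate number as a term (the replicate block). The smooth muscle sum, most of it ACTA2, was 8020 to 19892 CPM with PDGF-BB, 7923 to 18685 CPM with S100A4, 7917 to 19238 CPM with both proteins and 9303 to 21892 CPM in control, and with S100A4 it was lower than control in all 3 pairs. SMTN averaged 284 ± 34.3 CPM with PDGF-BB, 336 ± 33.7 CPM with S100A4, 258 ± 33.7 CPM with both and 458 ± 70.9 CPM in control (SD, n = 3 each). It fell with PDGF-BB (adjusted p = 0.0103) and with both (adjusted p = 0.00273) against control on group means. With the block 4 of the 8 smooth muscle markers fell and 1 rose with PDGF-BB, 4 fell and 0 rose with S100A4, and 3 fell and 1 rose with both, LMOD1 among those that fell each time. Pericyte markers summed to 420 to 1918 CPM with PDGF-BB, 312 to 1504 CPM with S100A4, 388 to 1805 CPM with both and 319 to 1493 CPM in control, higher than control in all 3 pairs with PDGF-BB and with both. Of the 5 pericyte markers, CSPG4 rose and NOTCH3 and ABCC9 fell with PDGF-BB under the block, and 1 rose and 1 fell with both. Macrophage markers, with PTPRC at 0 in all 12 libraries, summed to 7.25 to 9.52 CPM with PDGF-BB, 8.59 to 10.7 CPM with S100A4, 7.63 to 9.29 CPM with both and 9.01 to 11.5 CPM in control, lower than control in all 3 pairs of each treatment. Cycling-cell markers summed to 144 to 598 CPM with PDGF-BB, 159 to 606 CPM with S100A4, 166 to 524 CPM with both and 183 to 601 CPM in control, lower than control in all 3 pairs with PDGF-BB and with both. Fibroblast markers were at 258 to 1019 CPM with PDGF-BB, 259 to 1135 CPM with S100A4, 232 to 1043 CPM with both and 255 to 1178 CPM in control, lower than control in all 3 pairs with both. Under the block the 5 fibroblast markers went both ways, with 1 higher and 1 lower with PDGF-BB and 2 higher and 2 lower with both. With S100A4 1 was higher and 0 lower. Endothelial markers were at 120 to 201 CPM with PDGF-BB, 59.5 to 136 CPM with S100A4, 133 to 190 CPM with both and 55.2 to 127 CPM in control, higher than control in all 3 pairs of each treatment, with KDR at 0 in 4 libraries. Of the 4 endothelial genes tested, 1 passed with PDGF-BB, the transcription factor ERG (log2 change 1.23 ± 0.30, adjusted p = 0.0217), while PECAM1 (0.22 ± 0.91) and CDH5 (0.03 ± 0.37) did not pass. These markers moved alongside the ribosome biogenesis genes, and their part in the results was not tested. In such bulk RNA fewer cells of a type and less RNA per cell cannot be told apart.

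Most ribosome biogenesis genes rose with PDGF-BB. Of 54 tested members, 48 rose and 0 fell against control, where 9.09% of all 12444 tested genes rose and 5.62% fell. The median log2 change of the members was 0.70, or 1.62-fold, against −0.02 over all tested genes. Changes ranged from 0.24 to 1.31, so that 9 members at least doubled, 32 lay between 0.5 and 1 on the log2 scale, and 13 lay under 0.5. The 55 members with a row took 0.502% to 0.617% of all counts in PDGF-BB libraries and 0.320% to 0.410% in control libraries, and these ranges did not overlap. In 50 of the 54 members every PDGF-BB library was above every control library, against 16.3% of all tested genes. The tests compared the 4 group means in one fit of edgeR's quasi-likelihood model, with p-values adjusted by Benjamini-Hochberg over all tested genes and a threshold of 0.05. Values after ± are standard errors (SE) for log2 changes and n is 3 libraries per group.

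**Figure D1:**
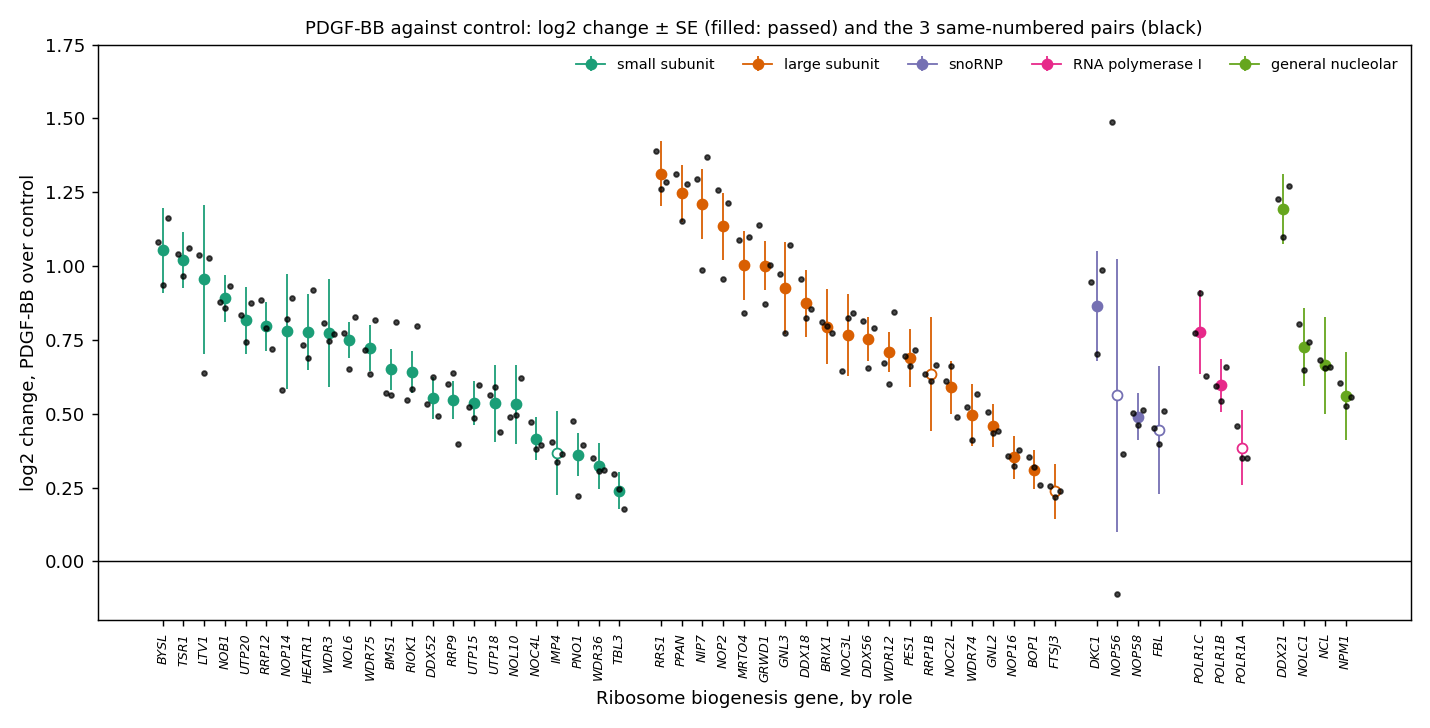
Log2 change with PDGF-BB over control (y axis) for each of the 54 tested ribosome biogenesis genes (x axis, by role), with the SE as bars, filled points for genes that passed, and black points for the 3 same-numbered pairs of libraries. All 54 estimates lie above 0, between 0.24 and 1.31, and in NOP56 alone does 1 pair lie below 0.

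Factors for the small subunit rose in 22 of 23 tested members, with a median of 0.65. BYSL, needed for late maturation of the small subunit, showed the largest change (1.05 ± 0.14, adjusted p = 0.0012). Its level was 71.7, 81.0 and 72.9 CPM in PDGF-BB libraries 1 to 3, against 33.9, 42.3 and 32.5 CPM in control libraries 1 to 3. TSR1, a GTPase-like protein of late precursors of the small subunit, had 77.3, 88.0 and 79.0 CPM with PDGF-BB, against 37.6, 45 and 37.8 CPM in control (1.02 ± 0.09, adjusted p = 0.000167). For both genes all PDGF-BB libraries lay above all control libraries, and number 2 was the highest of its group.

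The assembly and export factor LTV1 (0.95 ± 0.25, adjusted p = 0.0299) rested on few reads, with a mean of 44.6 counts per library, and its row may cover only part of the gene. NOB1, the endonuclease that makes the final cut of the small-subunit RNA, rose by 0.89 ± 0.08. The scaffold protein UTP20 rose by 0.82 ± 0.11 and RRP12, which aids export of the subunits, by 0.80 ± 0.08. The remaining 16 called factors rose by 0.24 to 0.78. IMP4, which acts with the U3 snoRNP, was the 1 small-subunit factor that did not pass (0.37 ± 0.14, adjusted p = 0.121). With the replicate block it rose (0.37 ± 0.07, adjusted p = 0.00097).

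Large-subunit factors rose in 18 of 20 members, with a median of 0.76, and 6 of the 10 largest changes among all members were theirs. RRS1 (ENSSSCG00000006214, chromosome 4, 68285803 to 68288213), which brings the small 5S ribosomal RNA and its proteins to the large subunit in yeast, rose 2.48-fold (1.31 ± 0.11, adjusted p = 0.000127). It had 33, 35.1 and 34.8 CPM in PDGF-BB libraries, against 12.6, 14.6 and 14.2 CPM in control libraries. Its RefSeq interval overlaps a long non-coding RNA, so its counts are uncertain. PPAN (ENSSSCG00000013662, chromosome 2, 68958906 to 68962657), whose yeast relative acts in early assembly of the large subunit, had 36.8, 39.0 and 36.2 CPM with PDGF-BB and 14.8, 17.5 and 14.9 CPM in control (1.25 ± 0.10, adjusted p = 9.76e-05). The groups were far apart for both genes relative to the spread within a group. RRS1 averaged 34.3 ± 1.11 CPM with PDGF-BB and 13.8 ± 1.10 CPM in control (SD, n = 3 each).

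NIP7, a processing factor, rose by 1.21 ± 0.12. NOP2, a methyltransferase of large-subunit RNA, rose by 1.13 ± 0.11. MRTO4, a relative of the ribosomal stalk protein that holds its place during assembly, rose by 1.00 ± 0.12, and GRWD1, a chaperone of a ribosomal protein, by 1.00 ± 0.08. The remaining 12 called factors rose by 0.31 to 0.93. The subunits of the PeBoW complex, picked out after their values were seen, did not move by the same amount: PES1 rose by 0.69 ± 0.10 and WDR12 by 0.71 ± 0.07, while BOP1 rose by 0.31 ± 0.07. BOP1 and WDR12 overlap another protein-coding gene in RefSeq, so this contrast is uncertain. RRP1B (0.63 ± 0.19, adjusted p = 0.0539) and the methyltransferase FTSJ3 (0.24 ± 0.09, adjusted p = 0.126) did not pass on group means. With the replicate block RRP1B rose by 0.64 ± 0.07 (adjusted p = 3.25e-06) and FTSJ3 by 0.24 ± 0.05 (adjusted p = 0.00135).

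Among snoRNP proteins 2 of 4 rose, counting the doubtful row of NOP56. DKC1, the enzyme that converts uridine to pseudouridine in box H/ACA snoRNPs, had 149, 156 and 126 CPM with PDGF-BB, against 77.4, 95.8 and 63.3 CPM in control (0.86 ± 0.19, adjusted p = 0.0120). NOP58, a core protein of the methylating box C/D snoRNPs, rose by 0.49 ± 0.08 (adjusted p = 0.0025). The methyltransferase FBL, fibrillarin, had 63.9, 75.7 and 54.1 CPM with PDGF-BB and 46.8, 57.5 and 38.0 CPM in control. Its libraries overlapped between the groups, and the change did not pass on group means (0.45 ± 0.22, adjusted p = 0.228), while with the replicate block it rose by 0.45 ± 0.06 (adjusted p = 3.65e-05). The row of NOP56, the partner of NOP58, had a mean of 17.5 counts per library, against 3341 for NOP58, may cover only part of the gene, and passed in neither fit (0.56 ± 0.46, adjusted p = 0.513, and adjusted p = 0.267 with the block). NOP56 was at 0.931, 0.717 and 0.387 CPM with PDGF-BB, against 0.282, 0.780 and 0.283 CPM in control, so the pairs of this row disagreed in direction.

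Of the RNA polymerase I subunits, 2 of 3 rose. POLR1A and POLR1C overlap another protein-coding gene in RefSeq, so their counts are uncertain. POLR1C, which RNA polymerase III shares, had 5.83, 5.54 and 5.87 CPM with PDGF-BB, against 3.38, 2.92 and 3.77 CPM in control (0.78 ± 0.14, adjusted p = 0.00529). POLR1B, the second largest subunit, had 92.7, 108 and 102 CPM with PDGF-BB and 61.4, 74.2 and 64.5 CPM in control (0.60 ± 0.09, adjusted p = 0.00187). The largest subunit, POLR1A, had 81.5, 94.5 and 78.2 CPM with PDGF-BB and 59.2, 74.1 and 61.3 CPM in control. Every PDGF-BB library of POLR1A was above every control library, but the change did not pass on group means (0.39 ± 0.13, adjusted p = 0.0710). It rose with the replicate block (0.39 ± 0.05, adjusted p = 9.72e-06).

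All 4 general nucleolar proteins rose. The RNA helicase DDX21 (ENSSSCG00000010247, chromosome 14, 72039985 to 72063778) had 268, 314 and 291 CPM with PDGF-BB, against 115, 147 and 120 CPM in control (1.19 ± 0.12, adjusted p = 0.000247). NOLC1, a chaperone of snoRNPs, had 224, 254 and 222 CPM with PDGF-BB and 128, 162 and 132 CPM in control (0.73 ± 0.13, adjusted p = 0.0051). NCL, nucleolin, had 914, 1046 and 784 CPM with PDGF-BB, against 570, 664 and 497 CPM in control (0.66 ± 0.16, adjusted p = 0.0227). NPM1, nucleophosmin, had 695, 734 and 573 CPM with PDGF-BB and 458, 510 and 390 CPM in control (0.56 ± 0.15, adjusted p = 0.0306). Groups did not overlap for any of the 4. NPM1 is known for many near-identical copies in mammalian genomes, and how reads that match more than 1 place were counted is not given in the sources used here, so its counts are uncertain.

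**Figure D2:**
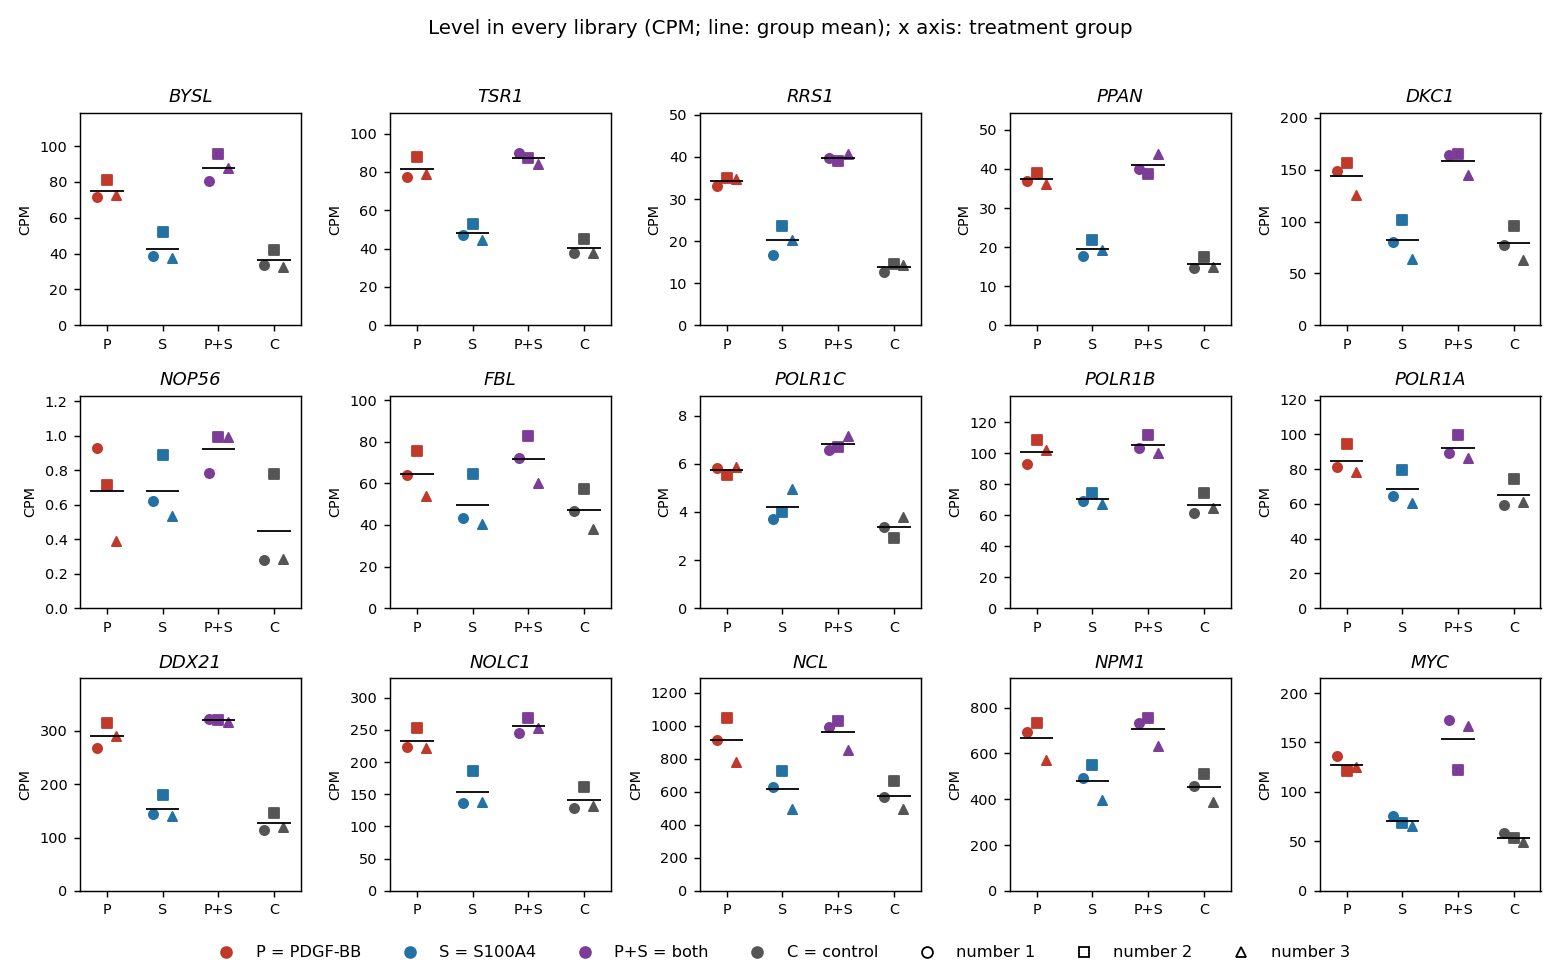
Level in CPM (y axis, from 0) in every library by treatment group (x axis), for the 14 ribosome biogenesis genes shown by library and for MYC, with the group mean as a line and a marker shape per replicate number. RRS1 lies at 33 to 35.1 CPM with PDGF-BB and 12.6 to 14.6 CPM in control, and POLR1A is highest in number 2 within each of the 4 groups.

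The change with PDGF-BB was alike in the 3 same-numbered pairs of libraries. The members' median log2 difference from the control library of the same number was 0.68 for number 1, 0.64 for number 2 and 0.73 for number 3, and 53 of 54 members were higher in all 3 pairs, against 33.7% of all tested genes. Number 2 gave the smallest of the 3 differences in 41 members. With the replicate block 53 members rose, all but NOP56, where 24.3% of all tested genes rose. The count on group means varied with the numbers kept: it was 13 without number 1 of all groups and 23 without number 3. The count with the block was 53 without any one number or library. Without number 2 the count was 48 on group means. Shares of all tested genes in runs with libraries left out are not given, here or below. Falls in such counts can therefore not be called particular to the members.

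In RefSeq, 20 of the 58 members overlapped another protein-coding gene, and the strand setting of the counting is not given in the sources used here, so reads of such neighbours cannot be told apart. Those of the small subunit were TSR1, NOP14, WDR36, WDR75, UTP18, UTP20, LTV1, HEATR1, IMP4 and BMS1. The others were NOP16, NOC2L, WDR12, BOP1, GNL2, GNL3, FTSJ3, NOP56, POLR1A and POLR1C, and the values of all 20 are uncertain. With genes of other kinds counted, 25 members overlapped another gene. RRS1 and NPM1 overlapped a long non-coding RNA, WDR3 a miscellaneous RNA, NOL10 a pseudogene and BRIX1 a transfer RNA. Their values are uncertain as well. Among the 34 tested members that overlapped no other protein-coding gene 32 rose with PDGF-BB, and among the 20 that did 16 rose.

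Other genes of the pathway rose as well. A list of 93 further biogenesis factors, also made with earlier results of these data known, had 84 tested genes. On group means 46 of these rose and 0 fell, where 9.09% of all tested genes rose and 5.62% fell. Counts with the replicate block are not given here for this list or its roles. Genes of it that did not pass can therefore not be called unchanged. The median log2 change of the 84 genes was 0.42. By role, 15 of 21 small-subunit factors, 17 of 32 large-subunit factors, 4 of 7 snoRNP proteins, 6 of 12 RNA polymerase I subunits and factors and 4 of 12 subunits and cofactors of the RNA exosome, which trims precursors, rose. Examples were the processome proteins RRP7A (0.92 ± 0.06), MPHOSPH10 (0.90 ± 0.08) and UTP4 (0.78 ± 0.07), the large-subunit GTPase GTPBP4 (0.98 ± 0.08) and EBNA1BP2 (0.89 ± 0.07). RRN3, the factor that recruits RNA polymerase I to its promoter, rose by 0.75 ± 0.07 and the polymerase subunit POLR1E by 0.80 ± 0.11. The H/ACA protein GAR1 rose by 0.76 ± 0.13 and the exosome subunit EXOSC4 by 0.62 ± 0.06.

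Genes for the ribosomal proteins themselves gave a smaller median. A row was found for 46 of 79 cytosolic ribosomal protein genes and 43 were tested. In edgeR on group means 0 of the 43 passed, where 9.09% of all tested genes rose. With the replicate block 35 of the 43 rose and 0 fell, where 24.3% of all 12444 tested genes rose and 3046 genes fell. The median of the ribosomal protein genes was 0.13, and the range was 0.01 to 0.44. Many of them have near-identical copies, so single values are uncertain. RPS2 (0.44 ± 0.14, adjusted p = 0.0653) had the smallest adjusted p of this list.

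MYC, a transcription factor known to bind many ribosome biogenesis genes, had 136, 121 and 125 CPM with PDGF-BB, 75.8, 69 and 66 CPM with S100A4, 173, 122 and 167 CPM with both proteins, and 58, 53.4 and 49.5 CPM in control. It rose with PDGF-BB against control (1.25 ± 0.13, adjusted p = 0.000265) and with both proteins against control (1.52 ± 0.13, adjusted p = 5.50e-05). MXI1, which competes with MYC for its partner MAX, had 3.08, 3.36 and 3.13 CPM with PDGF-BB and 8.33, 8.31 and 8.63 CPM in control, and it fell (−1.40 ± 0.20, adjusted p = 0.00143). The changes of MNT (−0.20 ± 0.10, adjusted p = 0.238) and MAX (0.09 ± 0.06, adjusted p = 0.447) did not pass.

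With S100A4 alone the estimates were small and mostly above 0. On group means 0 of 54 members passed against control in edgeR, where 0.554% of all tested genes rose and 0.00804% fell, and 11 members had an unadjusted p under 0.05. DESeq2 called 2 members, RRS1 and NOL6, and limma-voom 0. Shares of all tested genes are not given for the DESeq2 calls or for the unadjusted p, here or below. Neither count can therefore be called particular to the members. The median log2 change was 0.14, or 1.10-fold, against −0.02 over all tested genes. Of the 54 estimates 51 were above 0, against 44.8% of all tested genes. With the replicate block 14 members rose and 0 fell, where 6.46% of all tested genes rose and 4.28% fell. In 37 members S100A4 was higher in all 3 pairs, against 21.5% of all tested genes. The block count was 2 without number 1 and 2 without number 3 of all groups, 3 without S100A4 library 2, 8 without S100A4 library 1, 6 without control library 1 and 5 without control library 3.

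RRS1 had 16.8, 23.6 and 20.3 CPM with S100A4, against 12.6, 14.6 and 14.2 CPM in control. The groups did not overlap, and RRS1 had the smallest adjusted p on group means (0.55 ± 0.11, adjusted p = 0.0719). With the block it rose by 0.55 ± 0.08 (adjusted p = 0.000607). PPAN had 17.8, 21.9 and 19.2 CPM with S100A4 and 14.8, 17.5 and 14.9 CPM in control (0.32 ± 0.10, adjusted p = 0.346, and adjusted p = 0.0218 with the block). The processome protein NOL6 had 89.8, 97.6 and 90.0 CPM with S100A4 and 76.4, 82.8 and 73.5 CPM in control (0.25 ± 0.06, adjusted p = 0.152, and adjusted p = 0.00261 with the block). NOB1 (0.28 ± 0.08), WDR36 (0.28 ± 0.08), another processome protein, and the GTPase GNL2 (0.25 ± 0.07) passed with the block as well. The other 8 calls with the block, named after they were seen, were TSR1, UTP15, BYSL and HEATR1 of the small subunit, NOC3L, DDX18 and GNL3 of the large subunit, and DDX21. No subunit of RNA polymerase I and no snoRNP protein passed in either fit.

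**Figure D3:**
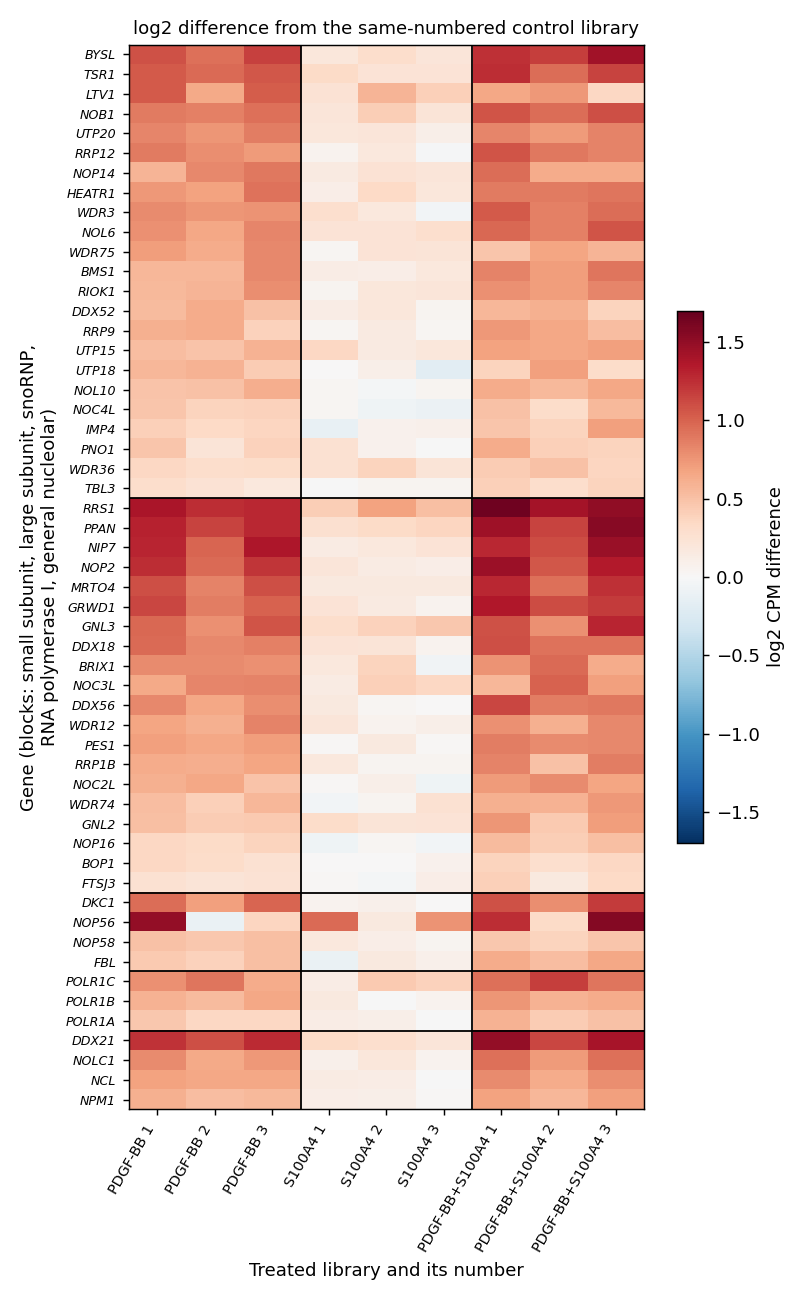
Log2 CPM difference of each treated library from the control library of the same number (columns: PDGF-BB, S100A4 and PDGF-BB+S100A4, numbers 1 to 3) for the 54 tested genes (rows, in blocks by role). The members' median is 0.64 to 0.73 in the PDGF-BB columns, 0.09 to 0.17 in the S100A4 columns and 0.71 to 0.80 in the columns with both proteins.

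Nearly the whole list rose with the combination. Against control 51 of 54 members rose with PDGF-BB+S100A4 and 0 fell, where 13.2% of all tested genes rose and 8.75% fell, and the median log2 change was 0.75, or 1.69-fold. Every combination library was above every control library in all 54 tested members, against 19.8% of all tested genes. The 14 members that at least doubled included RRS1 with 39.8, 39.0 and 40.6 CPM in combination libraries, against 12.6, 14.6 and 14.2 CPM in control libraries (1.53 ± 0.11, adjusted p = 2.45e-05). PPAN rose by 1.38 ± 0.10, GRWD1 by 1.22 ± 0.08 and NOB1 by 1.04 ± 0.08. NOL6 had the smallest adjusted p, with 151, 150 and 154 CPM with both proteins and 76.4, 82.8 and 73.5 CPM in control (0.97 ± 0.06, adjusted p = 1.27e-05), and the helicase DDX56 rose by 0.97 ± 0.07. LTV1, NOP56 and FBL did not pass on group means and rose with the replicate block, which called all 54 members where 27.5% of all tested genes rose. Without number 1 of all groups the count on group means was 26. Without number 2 it was 50.

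Differences between the combination and PDGF-BB alone were small. Against PDGF-BB 0 of 54 members passed in edgeR on group means, where 0.273% of all tested genes rose and 0% fell, with 5 members at an unadjusted p under 0.05 and 0 called by DESeq2 or limma-voom. The median log2 change was 0.12, against −0.0014 over all tested genes, whose upper quartile was 0.081. Of the 54 estimates 45 were above 0, against 49.6% of all tested genes. With the replicate block 4 of 54 members rose, where 5.11% of all tested genes did. These shares were close, so the number of calls with the block was not particular to the list, while its median lay above the upper quartile of all tested genes. NOL6 had 151, 150 and 154 CPM with both proteins and 131, 130 and 131 CPM with PDGF-BB (0.22 ± 0.06, adjusted p = 0.386, and adjusted p = 0.00746 with the block). DDX56 had 61.1, 60.4 and 58.3 CPM with both proteins, against 48.8, 52 and 54 CPM with PDGF-BB (0.22 ± 0.07, adjusted p = 0.670, and adjusted p = 0.0285 with the block). The remaining block calls were GRWD1 (0.21 ± 0.05 with the block, adjusted p = 0.0252) and BYSL, named after its values were seen (0.23 ± 0.06 with the block, adjusted p = 0.0368). UTP15 (0.15 ± 0.07), BMS1 (0.17 ± 0.07) and GNL2 (0.18 ± 0.07) passed in neither fit. The block count was 0 without number 1, 13 without number 2 (12 higher, 1 lower) and 0 without number 3 of all groups, 1 without PDGF-BB library 1, 0 without PDGF-BB library 2, 1 without combination library 1, 21 without combination library 2 and 0 without combination library 3.

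In cells that also received S100A4, most members again rose with PDGF-BB. Combination against S100A4 uses other libraries than PDGF-BB against control, and 47 of 54 members rose in it and 0 fell, where 9.45% of all tested genes rose and 5.51% fell. The median was 0.63 on the log2 scale, against 0.70 for PDGF-BB over control, all 54 members had the same sign in both, and the changes correlated across the 54 genes at r = 0.81. Genes are not independent replicates, so this r is a description, and libraries of the same number may share an animal. The changes with S100A4 correlated less across separate libraries. S100A4 over control and the combination over PDGF-BB correlated at r = 0.17 over the 54 genes, with the same sign in 44. Their medians were only 0.14 and 0.12, and the doubtful rows of LTV1 and NOP56 were included. This r can therefore not separate disagreement from imprecision. GRWD1 (1.07 ± 0.08, adjusted p = 0.000127), DDX56 (0.90 ± 0.07), NOL6 (0.71 ± 0.06), PPAN (1.06 ± 0.10), RRP12 (0.86 ± 0.08) and NOP2 (1.13 ± 0.11) had the smallest adjusted p. NOP14, WDR36, LTV1, RRP1B, FTSJ3, NOP56 and FBL did not pass, and of these LTV1 and NOP56 did not pass with the block either, where 52 members and 24.9% of all tested genes rose. On group means the count was 0 without number 1 and 14 without number 3 of all groups, and with the block it was 51 to 52 without any one number or library. Without number 2 it was 49 on group means.

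**Figure D4:**
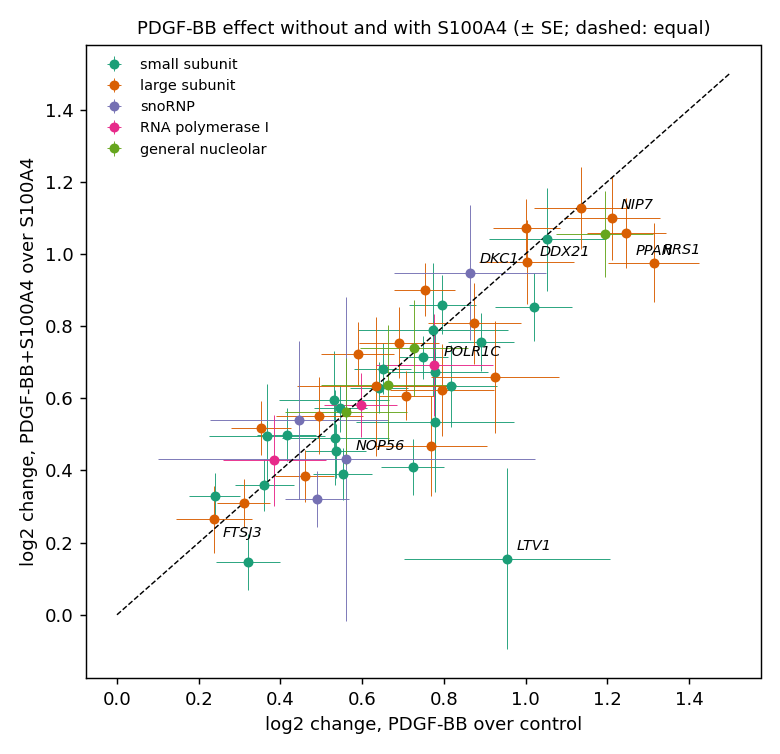
Log2 change of each of the 54 genes with PDGF-BB over control (x axis) and with PDGF-BB+S100A4 over S100A4 (y axis), with SE bars and colours by role; the dashed line marks equal changes. The points lie along the line (r = 0.81), and LTV1 lies farthest below it, at 0.95 and 0.15.

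The test of the interaction, which asks whether the effect of S100A4 differs with and without PDGF-BB, called 0 members in edgeR on group means, 0 with the replicate block and 0 by DESeq2 or limma-voom. Of all tested genes 0% were called higher or lower on group means, and 0.0161% higher and 0.0964% lower with the block. The median interaction was −0.02 on the log2 scale, and 2 members had an unadjusted p under 0.05. They were WDR75 of the small subunit (−0.31 ± 0.11, adjusted p = 1.00, and adjusted p = 0.273 with the block) and LTV1 (−0.80 ± 0.36, adjusted p = 1.00). RRS1 (−0.34 ± 0.15), the helicase DDX52 (−0.16 ± 0.10), WDR36 (−0.18 ± 0.11) and NOP16 (0.17 ± 0.10) came next. The SE of the interaction was 0.0845 to 0.643 on group means and 0.0552 to 0.505 with the block over the members, and no member passed at these errors, WDR75 with an estimate of several SE included.

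The single proteins differed from each other. With PDGF-BB against S100A4, 38 of 54 members were higher and 0 lower, where 6.44% of all tested genes were higher and 4.67% lower, and the median was 0.55. NIP7 (1.03 ± 0.12, adjusted p = 0.000662), NOP2 (0.98 ± 0.11), PPAN (0.93 ± 0.10), GRWD1 (0.86 ± 0.08), RRP12 (0.72 ± 0.08) and DDX56 (0.68 ± 0.07) were higher with PDGF-BB. DDX21 had 268, 314 and 291 CPM with PDGF-BB, against 143, 179 and 140 CPM with S100A4, without overlap. With the block 52 members were higher, all but WDR36 and NOP56, where 22.5% of all tested genes were. On group means the count was 0 without number 1 and 5 without number 3 of all groups, and with the block it was 46 without number 1 and 49 without number 3. Without number 2 it was 39 on group means.

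**Figure D5:**
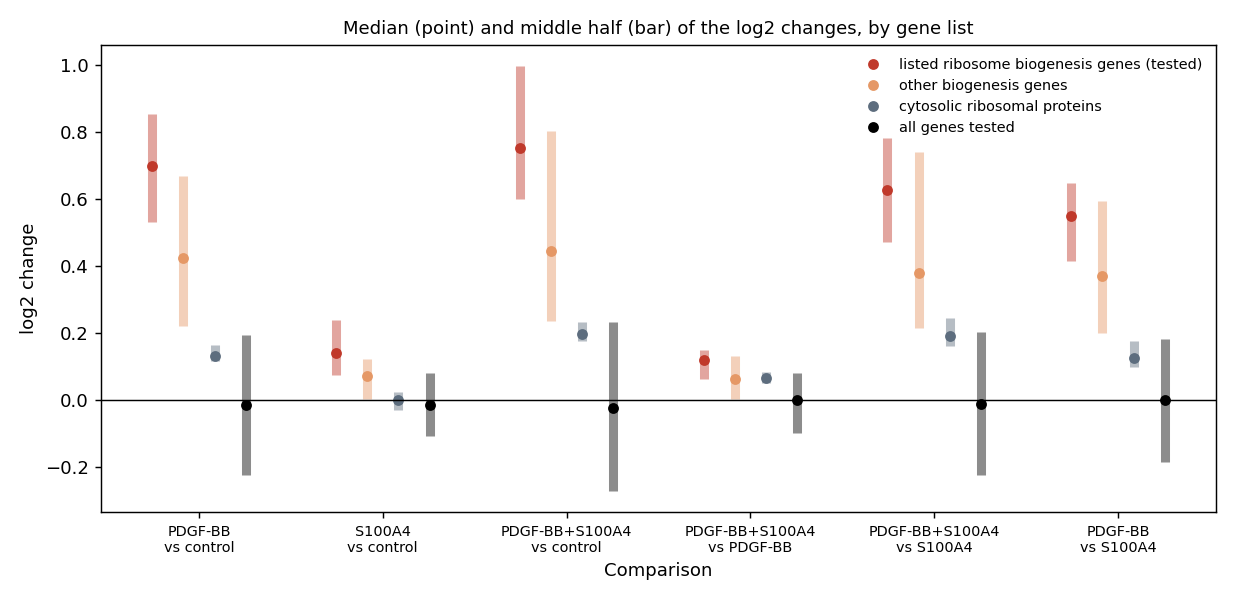
Median (points) and range from the lower to the upper quartile (bars) of the log2 changes in 6 comparisons (x axis) for the ribosome biogenesis genes described here, the further biogenesis genes, the cytosolic ribosomal protein genes and all tested genes. With PDGF-BB over control the medians are 0.70, 0.42, 0.13 and −0.02, and with S100A4 over control the ribosome biogenesis genes are at 0.14 and all tested genes at −0.02.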

How the data were processed

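The values are the deposited counts of reads per Ensembl gene, whole numbers without normalization in 12 libraries. Tools named are CASAVA 1.8.2, STAR 2.4 and featureCounts 1.4.6 on build Sscrofa11.1, per the submitters' processing notes. Their roles and settings, the annotation release and strand use were not given in the sources used here. Symbols were matched for 14572 of 21153 identifiers.

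Genes were kept by filterByExpr (minimum count 10), scaled by TMM and tested with the quasi-likelihood test of edgeR 4.0.16 in R 4.3.3, in one fit of 12 libraries on the 4 group means, two-sided, over 12444 genes, in 7 comparisons. The SE is the unshrunk coefficient divided by the root of the F statistic. CPM use TMM-scaled library sizes, and log2 CPM a prior count of 2. The fit was tested on simulated data. Alternatives were DESeq2 1.42.0, limma-voom (limma 3.58.1), other scalings and filters, the compared groups alone, left-out libraries, and replicate number as a block.

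Deviations from group means correlated at r = 0.746 to 0.908 in the 18 pairs of same-numbered libraries and at −0.676 to 0.136 in the 36 others, so the numbers were taken as pairing the libraries, from the data, since no label ties a number to an animal. P-values therefore measure only how these libraries vary. The common biological coefficient of variation was 27.2% on group means and 5.14% with the block. No 2 libraries of a group agreed within sampling noise (chi-square per gene 23.0 or more). Members, gene lists and the naming rule were chosen with earlier results of these data known. The rule named, per role, up to 6 members with the largest change that passed with PDGF-BB over control and all that did not pass. It also named 6 members with the smallest adjusted p in each other comparison, and 3 further genes per list. Not all of these further genes are printed, and MAX was printed outside the rule. Promoter sequences were not used here, so the planned motif description was not made.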

Additional observations from a re-analysis of the deposited data

How the results depend on the processing

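No call on a named member changed direction under any alternative run; over all named members and alternatives, 207 values passed that had not passed on group means and 52 no longer did. Counts of members called with PDGF-BB over control, the combination over control, the combination over S100A4 and PDGF-BB over S100A4 stayed within 1.5 times of 48, 51, 47 and 38 under the replicate block, DESeq2, limma-voom, upper-quartile or RLE scaling another filter or none, and the compared groups alone. With S100A4 over control the count was 0 on group means, 14 with the replicate block and 2 with DESeq2, and with the combination over PDGF-BB it was 0 on group means and 4 with the block. The replicate block changed no other count by over 1.5 times. Leaving out one replicate number or one library gave, on group means, 13 to 50 calls for PDGF-BB over control, 0 to 1 for S100A4 over control, 26 to 51 for the combination over control, 0 for the combination over PDGF-BB, 0 to 49 for the combination over S100A4, 0 to 39 for PDGF-BB over S100A4 and 0 for the interaction. With the block the ranges were 53 to 53, 2 to 15, 52 to 54, 0 to 21, 51 to 52, 46 to 52 and 0 for the same comparisons. Within them, S100A4 over control with the block gave 2 without number 1, 10 without number 2, 2 without number 3, 8 and 3 without S100A4 libraries 1 and 2, 6, 10 and 5 without control libraries 1 to 3, 11 and 13 without PDGF-BB libraries 1 and 3, and 12 without combination library 3. The combination over PDGF-BB with the block gave 3 without PDGF-BB library 3, 3 without S100A4 library 1, and 5 without S100A4 library 2 or 3. The counts with libraries left out stand without the shares of all tested genes in the same runs. So do those under other methods, scalings or filters, and with the compared groups alone. Few counts limit LTV1, NOP56 and WDR43, at 44.6, 17.5 and 4.83 per library, and whether this comes from rows that cover part of a gene was not tested.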
